A study of Mus musculus with 6 samples.

Results

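Astrocytes, the glial cells that surround synapses and vessels, carry genes that are on at a steady level in healthy tissue and are used as markers of resting astrocytes. Of 787 probes counted in the hypothalamus, 10 of these genes were followed here by name: *Slc1a3*, *Gja1*, *Aldh1l1*, *Agt*, *S100b*, *Sox9*, *Egfr*, *Entpd2*, *Nwd1* and *Kcnj10*. All 10 were present in the raw counts and in the authors' scaled values, and all 10 passed the filter on low counts. RNA came from the hypothalami of 3 WT and 3 *Fmr1* KO female mice taken in diestrus when 8 weeks old, and 50 ng from each mouse was counted in 1 lane of the nCounter assay, in which colour-coded probes are counted on each RNA without amplification. The KO mice were FVB.129P2-Fmr1tm1Cgr/J and carried a germline knockout, and the WT mice were their congenic FVB controls. The labels name no agent for either group.

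Resting astrocytes take up glutamate after release, buffer potassium, exchange small molecules through gap junctions and break down extracellular ATP. GLAST, the protein of *Slc1a3*, is a sodium-coupled glutamate transporter, connexin 43, the protein of *Gja1*, forms the astrocyte gap junctions, and Kir4.1, the protein of *Kcnj10*, is the inward rectifier that carries potassium into the cell. In the hypothalamus astrocytes contact the neurons that govern reproduction and feeding, and they are the main brain source of angiotensinogen, which *Agt* encodes. The whole tissue was measured, so fewer astrocytes and less RNA per astrocyte cannot be told apart.

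Total counts were 165514 to 339934 per lane. Fmr1 KO replicate 2 had the lowest total and the highest lane factor, 1.72, against 0.767 to 1.13 in the other lanes. WT replicate 3 had 1626 raw counts of *Prl*, a pituitary hormone gene, against 4 to 123 in the other 5 lanes. Values without these mice are given for some genes, and ranges over the fits that left out 1 mouse are given for others. Lanes 1 to 3 held the WT mice and lanes 4 to 6 the knockouts, so genotype cannot be told apart from lane number. *Fmr1* was not analysed here. The 10 markers were all present at counts above the low probes: the mean raw count of the 78 lowest probes was 5.92 to 9.19 per lane, and the lowest raw count of any of the 10 genes was 34, for *Egfr* in Fmr1 KO replicate 2. Values of single mice are given in the order of replicates 1, 2 and 3.

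Testing was limited to the 601 probes with over 20 raw counts in at least 3 lanes. Normalized counts are raw counts times the authors' lane factor, and a log2 fold change is of *Fmr1* KO over WT from edgeR's quasi-likelihood test, with Benjamini-Hochberg adjusted p-values over all 601. None of the 10 genes passed an adjusted p of 0.05, against 0.832% of all tested probes. At an unadjusted p under 0.05, 2 of the 10 were lower and 0 were higher, against 2.83% and 5.66% of all tested probes, or 8.49% in both directions together. The lower genes were *Slc1a3* and *Gja1*. The study named *Slc1a3* as downregulated and showed *Gja1* in its heatmap of changed genes, both from these same samples. Their position is therefore not independent evidence. The median log2 fold change of the 10 genes was -0.01, against 0.01 over all tested probes. Of the 10 values 7 were below 0, against 284 of all 601 tested probes. Of these 7, *Kcnj10*, *Entpd2* and *Nwd1* were close to 0, at -0.0046, -0.0081 and -0.01.

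*Slc1a3* and *Gja1* were also the only genes of the 10 in which every *Fmr1* KO mouse lay below every WT mouse. Across all tested probes the groups did not overlap, with KO lower, for 6.82%, and for 13.6% in either direction. The annotated promoters of both genes are shown because these were the 2 members whose groups did not overlap. The sequences are from RefSeq, build GRCm38.p6, and run from 250 bases before the annotated start to 50 after it. *Slc1a3* is at chr15:8710758-8711057 on the minus strand and *Gja1* at chr10:56377050-56377349 on the plus strand. Capitals mark matches on either strand to TGACGT, the core of the cyclic AMP response element, and to TGANTCA, the AP-1 site.
Slc1a3: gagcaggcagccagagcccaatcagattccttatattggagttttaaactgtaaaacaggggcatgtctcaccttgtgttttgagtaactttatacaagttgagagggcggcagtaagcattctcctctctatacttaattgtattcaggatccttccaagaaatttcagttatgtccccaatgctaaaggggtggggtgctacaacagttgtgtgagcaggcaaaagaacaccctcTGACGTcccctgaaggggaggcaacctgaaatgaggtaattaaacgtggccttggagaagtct
Gja1: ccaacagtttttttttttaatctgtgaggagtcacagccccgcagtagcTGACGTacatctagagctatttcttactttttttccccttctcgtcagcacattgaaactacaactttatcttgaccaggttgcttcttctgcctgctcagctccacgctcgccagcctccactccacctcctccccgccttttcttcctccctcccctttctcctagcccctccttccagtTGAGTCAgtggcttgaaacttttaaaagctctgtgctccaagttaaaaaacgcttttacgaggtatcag
The 2 motifs do not overlap in the *Gja1* window, and the *Slc1a3* window holds TGACGT only. TGACGT was found in 2 of the 9 members with a promoter sequence, *Slc1a3* and *Gja1*, against 7.51% of 32851 annotated promoters. These promoters were picked for the separation of their groups and the motifs after values were seen, so this is not a separate result. TGANTCA was found in *Gja1* and *Entpd2*, against 7.81% of all promoters. The letters TATAAA, those of a TATA box, were searched on either strand and anywhere in the window. They were found in *Slc1a3* and *Agt*, against 13.6% of all promoters. The letters CCAAT, those of the CCAAT box, were found in 4 of 9, against 37.4%. The letters ATTGTT, a core recognized by SOX proteins, were in none of the 9 windows, against 10.7% of all promoters. These are matches of letters only.

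*Slc1a3* (RefSeq NM_148938.3) had 4155, 4175 and 4244 normalized counts in the WT mice and 3678, 3491 and 3896 in the KO mice. The 3 WT mice lay close together and all KO mice were below them, with KO replicate 2 the lowest. Means were 4191 ± 47.0 in WT and 3688 ± 202 in KO mice (mean ± SD, 3 mice per group), a difference of -12.0%. The log2 fold change was -0.18 with a standard error of 0.07 and a 95% interval of -0.34 to -0.03, and the adjusted p of 0.459 from edgeR did not pass. The WT coefficient of variation of 1.12% was smaller than the counting error of a single lane, which was 1.44% to 2.22% for this gene, so the WT mice lay closer together than counting error gives on average.

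*Gja1* (RefSeq NM_010288.3) had 2839, 2903 and 3155 normalized counts in the WT mice and 2380.4, 2755 and 2630.2 in the KO mice. The groups were separated by 84.5 normalized counts, less than the SD within either group. Means were 2966 ± 167 and 2589 ± 191 (mean ± SD, 3 mice per group), a difference of -12.7%. On the log2 scale this was -0.20 with a standard error of 0.08 and a 95% interval of -0.37 to -0.03, and the adjusted p was 0.506 from edgeR. KO replicate 1 was the lowest for *Gja1*, whereas KO replicate 2 was the lowest for *Slc1a3*.

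**Figure D1:**
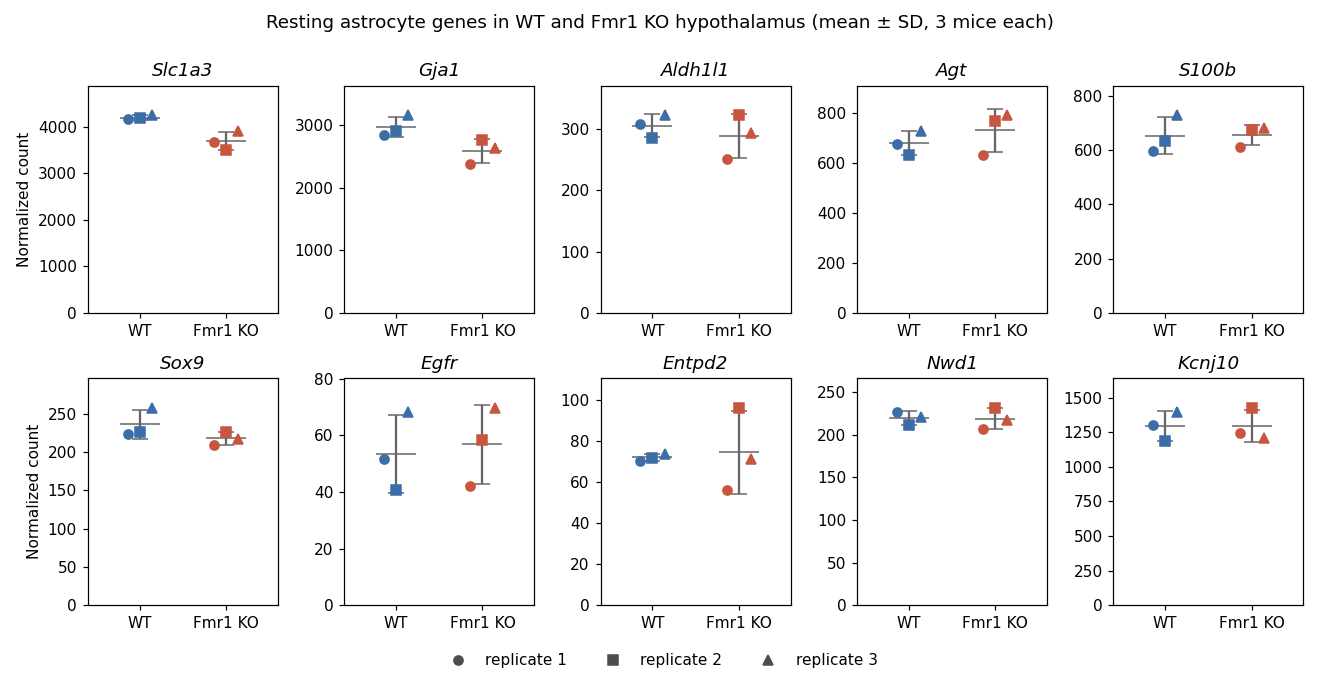
Normalized counts (y axis, from 0) of the 10 resting astrocyte genes in WT and Fmr1 KO hypothalami, with 1 point per mouse, its shape giving the replicate, and bars for mean ± SD. The 3 KO points lie below all WT points for Slc1a3 and Gja1, and the groups overlap for the other 8 genes.

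The call at an unadjusted p under 0.05 was not kept in every fit that left out 1 mouse. Such fits also have fewer mice. For *Slc1a3* it was lost without WT replicate 3 or KO replicate 2 (unadjusted p = 0.056 and 0.085 from edgeR). For *Gja1* it was lost without WT replicate 3 or KO replicate 1 (unadjusted p = 0.11 and 0.10 from edgeR). In DESeq2 neither gene had an unadjusted p under 0.05, and with the methods' t-test *Slc1a3* alone did. Without WT replicate 3, the mouse with high *Prl*, the log2 fold changes were -0.17 for *Slc1a3* and -0.15 for *Gja1*. Without *Fmr1* KO replicate 2, the mouse with the lowest total count, they were -0.15 and -0.24. Both genes stayed below 0 in all 17 alternatives, between -0.22 and -0.15 for *Slc1a3* and between -0.24 and -0.14 for *Gja1*, with adjusted p of 0.358 to 0.877 and 0.220 to 0.877 from the respective tests.

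The other transporter and channel gene, *Kcnj10*, had 1305, 1183 and 1398 normalized counts in the WT mice and 1246, 1428 and 1208 in the KO mice. The ranges overlapped, and the highest value was in a KO mouse. Means were 1295 ± 108 and 1294 ± 118 (mean ± SD, 3 mice per group). Its log2 fold change of -0.0046 had a 95% interval of -0.20 to 0.19, which is 0.873 to 1.14 times the WT level (adjusted p = 0.990 from edgeR). The interval leaves room for a fall as large as the one measured for *Slc1a3*.

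Among the enzymes, *Aldh1l1* encodes a folate enzyme that is widely used to label astrocytes. Its normalized counts were 309, 286 and 323 in the WT mice and 251, 323 and 294 in the KO mice. KO replicate 1 was below the WT range and the other KO mice were within it or at its upper edge. Its log2 fold change was -0.09 with a 95% interval of -0.34 to 0.15 (adjusted p = 0.902 from edgeR). *Entpd2* encodes an ectonucleotidase that cleaves extracellular ATP, and it had 70.4, 71.8 and 73.7 normalized counts in the WT mice and 56.0, 96.1 and 70.9 in the KO mice. The WT mice were nearly equal and the KO mice lay on both sides of them. Its log2 fold change was -0.0081 with a 95% interval of -0.45 to 0.43. The coefficient of variation was 2.37% in WT and 27.3% in KO mice, while counting alone gives an error of 11.2% to 13.4% per lane at its 56 to 80 raw counts, so the WT mice were closer than counting error gives on average.

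*Agt*, which encodes the precursor of angiotensin, was the gene with the highest log2 fold change. It had 674, 634 and 728 normalized counts in the WT mice and 632, 769 and 792 in the KO mice. Both KO replicates 2 and 3 were above the WT range, and KO replicate 1 was at the bottom of all 6 mice. The log2 fold change was 0.10 with a standard error of 0.10 and a 95% interval of -0.11 to 0.32 (adjusted p = 0.857 from edgeR). With each mouse left out it was 0.035 to 0.20, the lowest without KO replicate 3 and the highest without KO replicate 1, with adjusted p of 0.358 or more from edgeR. Without KO replicate 1 the unadjusted p of *Agt* was 0.037 from edgeR, and 76 of 601 tested probes were under 0.05 in that fit. *S100b*, which encodes a calcium-binding protein made and secreted by astrocytes, had 596, 633 and 728 normalized counts in the WT mice and 613, 673 and 681 in the KO mice. All KO values lay inside the WT range. On the log2 scale the difference was 0.0041 with a 95% interval of -0.20 to 0.20 (adjusted p = 0.990 from edgeR).

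*Sox9*, a transcription factor gene that specifies glia and stays on in astrocytes, had 224, 226 and 258 normalized counts in the WT mice and 209, 227 and 217 in the KO mice. KO replicates 1 and 3 were below all WT mice, and KO replicate 2 was just above WT replicates 1 and 2. Its log2 fold change was -0.12 with a 95% interval of -0.35 to 0.11 (adjusted p = 0.803 from edgeR). Without WT replicate 3, the mouse with the highest value, it was -0.05. *Egfr*, the receptor of epidermal growth factor, had the lowest raw counts of the 10, with 51.6, 40.9 and 68.2 normalized counts in the WT mice and 42.2, 58.4 and 69.8 in the KO mice. Both groups covered nearly the same range. At 34 to 74 raw counts its counting error was 11.6% to 17.1% per lane, and its log2 fold change of 0.05 had a 95% interval of -0.50 to 0.60. *Nwd1*, which encodes a protein of the NACHT and WD repeat family, had 227, 211 and 220.3 normalized counts in the WT mice and 207, 232 and 217 in the KO mice. Its WT range lay inside the KO range, and the log2 fold change was -0.01 with a 95% interval of -0.24 to 0.21.

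**Figure D2:**
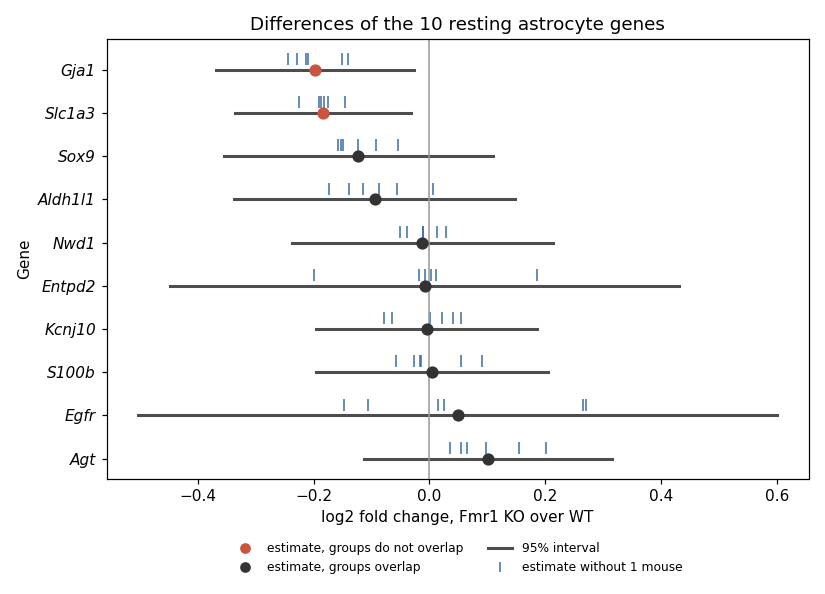
Log2 fold change of Fmr1 KO over WT (x axis) for each resting astrocyte gene (y axis) from edgeR, with the 95% interval as a line and the 6 estimates that leave out 1 mouse as ticks above it. The intervals of Gja1 and Slc1a3 end at -0.03, those of the other 8 genes hold 0, and Egfr has the widest, from -0.50 to 0.60.

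Several genes were highest or lowest in the same mouse of a genotype. WT replicate 3 was the highest WT mouse for 9 of the 10 genes, the exception being *Nwd1*, and it was the highest WT mouse for 49.3% of all tested probes. *Fmr1* KO replicate 1 was the lowest KO mouse for 8 of the 10 genes, the exceptions being *Slc1a3* and *Kcnj10*, and it was the lowest KO mouse for 64.6% of all tested probes. In KO replicate 1 the median log2 difference from the WT mean was -0.18 over the 10 genes and -0.08 over all tested probes. In KO replicate 2 these medians were 0.08 and 0.12, and in KO replicate 3 they were -0.04 and 0.03. The summed normalized count of the 10 genes was 10365 to 11196 in WT and 9315 to 10076 in *Fmr1* KO mice, a sum that *Slc1a3* and *Gja1* dominate.

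The median coefficient of variation over the 10 genes was 6.51% in WT and 8.23% in *Fmr1* KO mice, against 9.06% and 12.1% over all tested probes. The coefficient was higher in KO mice for 7 of the 10 genes and for 63.6% of all tested probes.

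**Figure D3:**
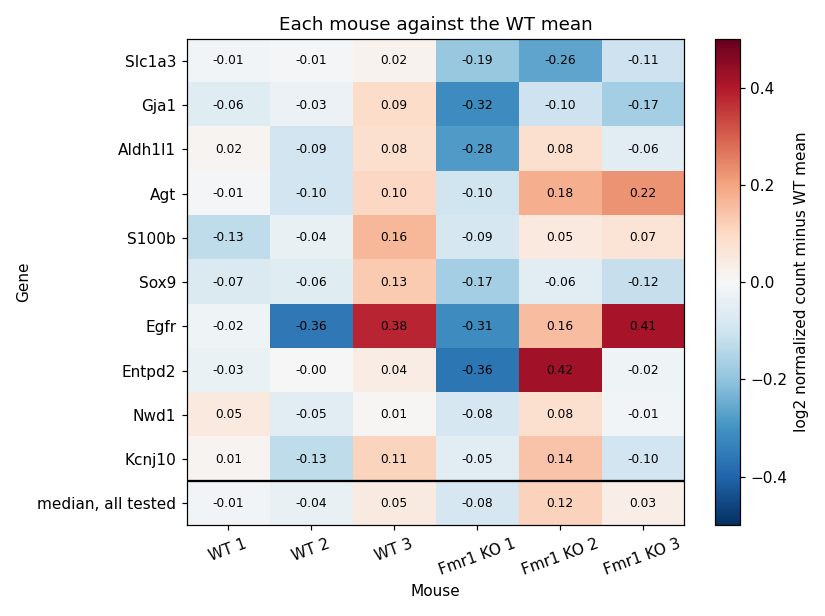
Log2 normalized count minus the WT mean (colour and printed value) for each gene (rows) in each mouse (columns), with the median over all 601 tested probes in the bottom row. The Slc1a3 and Gja1 rows are below 0 in all 3 KO mice, and the KO replicate 1 column is below 0 for all 10 genes.

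A lane factor acts on all genes of a mouse alike, so each gene was also set against the other 9 genes of the same mouse, on the log2 scale, as a description without a test. *Gja1* was lower in every *Fmr1* KO mouse than in every WT mouse by this measure as well. Relative to the WT mean it was -0.04, 0.06 and -0.02 in the WT mice and -0.13, -0.19 and -0.20 in the KO mice. *Agt* was higher in every KO mouse, at 0.11, 0.13 and 0.23 in the KO mice against 0.02, -0.01 and -0.0095 in the WT mice. *Slc1a3* overlapped between the groups, with 0.01, 0.09 and -0.10 in the WT mice and 0.0084, -0.37 and -0.13 in the KO mice. Of 591 tested probes outside the members, each set against the mean of the 10 genes, 3.38% were lower and 13.2% were higher in all KO mice, against 1 of the 10 genes in each direction. The separation of *Slc1a3* held for lane-scaled counts and not for its level against the other astrocyte genes, with KO replicate 1 inside the WT range. *Egfr* and *Entpd2*, with their low counts, enter that comparison with the same weight as the others. The ratio of *Gja1* to *Agt* was lower in all KO mice, with a mean log2 difference of -0.30, and so was that of *Slc1a3* to *Agt*, with -0.29. Of all 45 ratios between members the groups did not overlap in 9, which is 20% against 17.1% of all pairs of tested probes, so such ratios were not a result about the astrocyte genes.

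**Figure D4:**
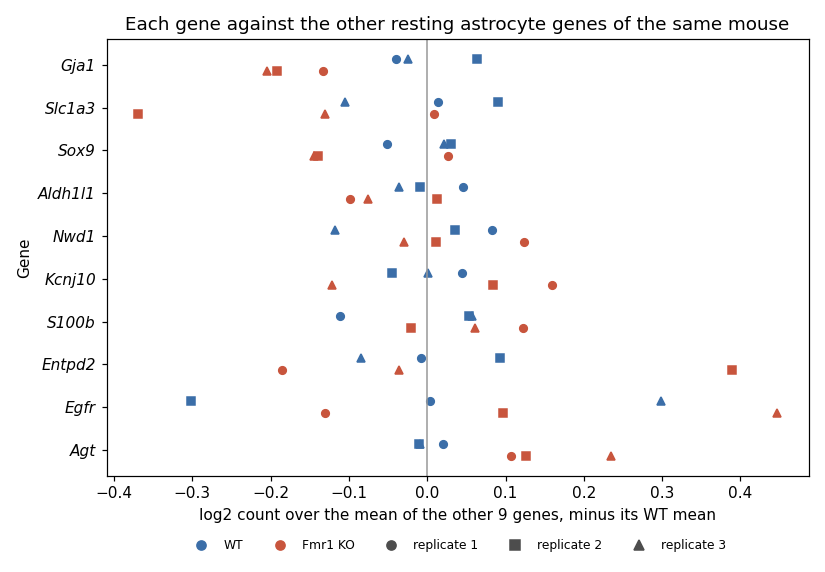
Log2 normalized count of each gene (y axis) minus the mean of the other 9 genes of the same mouse, set to 0 at the WT mean (x axis), with 1 point per mouse. All 3 KO points are left of the WT points for Gja1, from -0.20 to -0.13, and right of them for Agt, from 0.11 to 0.23, and the groups overlap for the other 8 genes.

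The probes with the pattern most like *Slc1a3* over the 6 mice, by the root mean square difference of centred log2 counts, were *Rb1cc1* (0.029), which encodes an autophagy initiation factor, *Prkar2a* (0.042), a regulatory subunit of protein kinase A, and *Mbd3* (0.047), a chromatin protein. All 3 were lower in every KO mouse than in every WT mouse, as were 6.82% of all tested probes. They were picked for their likeness to *Slc1a3*, whose groups did not overlap, so this is not a separate result. The median probe differed by 0.20 from *Slc1a3*, and *Gja1* was in place 53 with 0.095. For *Gja1* the nearest were *Bad* (0.033), which encodes a protein that promotes apoptosis, *Ccng2* (0.039), encoding cyclin G2, and *Ifnar1* (0.045), encoding a receptor subunit for type I interferon. No other member of the 10 was among the 3 nearest to either gene.

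The astrocyte genes outside the 10 were followed through lists. Of 32 reactive astrocyte genes on the panel, which rise when astrocytes respond to injury or inflammation, 21 were tested and none passed the adjusted threshold. At an unadjusted p under 0.05, 1 was higher and 2 were lower, against 5.66% and 2.83% of all tested probes, and the median log2 fold change was -0.09. *Serpina3n*, a secreted protease inhibitor that marks reactive astrocytes and that the study picked on these samples, had a log2 fold change of -0.29 with an SE of 0.10 (edgeR adjusted p = 0.394). *Amigo2*, a cell adhesion gene, had -0.25 with an SE of 0.11 (edgeR adjusted p = 0.587), and *Tm4sf1*, a membrane protein gene, had 0.25 with an SE of 0.11 (edgeR adjusted p = 0.581). *Vim*, encoding the intermediate filament vimentin, had -0.09.

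Of 4 other astrocyte homeostasis genes on the panel, none passed. *Apoe*, the lipid carrier gene that astrocytes express strongly, had 5254 ± 261 normalized counts in WT mice against 5374 ± 467 in KO mice (mean ± SD, 3 mice per group), a log2 fold change of 0.03. *Grm3*, a metabotropic glutamate receptor gene of astrocytes that neurons and oligodendrocyte lineage cells also express, had 267 ± 30.8 and 344 ± 40.1 (mean ± SD, 3 mice per group), a log2 fold change of 0.35 with an SE of 0.12 (edgeR adjusted p = 0.350), with overlapping groups. *Lfng*, which encodes a modifier of Notch receptors, had 0.0098, and *Cyp7b1*, a sterol hydroxylase gene, had -0.07.

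Few genes from the lists of partners and related genes of the 10 were on the panel. *Slc17a6* and *Slc17a7*, which load glutamate into synaptic vesicles, had log2 fold changes of -0.08 and 0.22, and neither passed. The study named *Slc17a6* as downregulated on these samples. It was lower in every KO mouse than in every WT mouse, as were 6.82% of all tested probes. *Tgfa*, a ligand of the receptor that *Egfr* encodes, had 113 ± 22.0 normalized counts in WT mice against 108 ± 0.665 in KO mice (mean ± SD, 3 mice per group), a log2 fold change of -0.07. *Erbb3*, a related receptor gene, had 0.35 and *Map2k1*, a kinase gene of the same relay, had -0.06, and neither passed. *P2ry12*, a microglial receptor for the ADP that ectonucleotidases such as the product of *Entpd2* form, had -0.06, and *P2rx7*, a receptor gene for ATP, had 0.29. *Enpp6*, an oligodendrocyte phosphodiesterase gene, had 0.59, and none of these 3 passed. *Gjb1*, the connexin gene of oligodendrocytes, had a log2 fold change of 0.52 with an SE of 0.17 (edgeR adjusted p = 0.350). *Kcnd1* and *Kcnk13*, both potassium channel genes, had 0.41 and 0.0060. Both *Gjb1* and *Kcnd1* were higher in every KO mouse than in every WT mouse, as were 6.82% of all tested probes. None of the 9 listed genes of the renin-angiotensin system other than *Agt* was among the probes.

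Markers of other cell types were counted in the same lanes. Of 15 tested genes of mature oligodendrocytes, 12 were higher at an unadjusted p under 0.05 and none was lower. Over all tested probes these shares were 5.66% and 2.83%. The median log2 fold change of the 15 was 0.51, and *Opalin* passed the adjusted threshold. The summed normalized count of the 16 on the panel was 13993 to 21481 in WT and 18615 to 26072 in *Fmr1* KO mice, so the groups overlapped. Of 14 tested neuron genes none passed, with a median of 0.07 and sums of 15694 to 16450.2 and 16446 to 16985. Of 14 tested microglia genes none passed, with a median of -0.08 and sums of 1918 to 2180.2 and 1795 to 2074. Of 7 tested brain endothelium genes none passed, with a median of 0.13 and sums of 650 to 841 and 652 to 833. In edgeR no tested neuron, microglia or endothelium gene had an unadjusted p under 0.05, against 8.49% of all tested probes. No listed probe of these 4 groups was at 0 in all lanes. Their part in the values of *Slc1a3* and *Gja1* was not tested.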

How the data were processed

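Hypothalamic RNA of 3 WT and 3 Fmr1 KO mice was counted on the nCounter Mouse Neuroinflammation Panel with added hypothalamic probes, 1 lane per mouse. The methods give a minimum RNA integrity for the samples and nSolver software for the counts. The deposited counts are raw whole numbers for 787 probes per lane, and the deposited signal values are these counts times 1 factor per lane, with 1 value raised to the floor. The methods state that the authors used 7 housekeeping genes for this scaling. The deposited table also gives the percent of lanes above the authors' threshold, which was not used. Of the probes, 772 matched RefSeq by accession, and the other 15 kept the table's own symbol. All sample columns were mapped.

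Lane factors were recovered from the ratio of both tables. Probes with a raw count above 20 in at least 3 lanes were tested, 601 in all, with edgeR 4.0.16 (estimateDisp, glmQLFit, glmQLFTest) in R 4.3.3 and Benjamini-Hochberg adjustment over all tested probes. The standard error is the log2 fold change over the square root of F, and the 95% interval uses the t distribution. The counting error is the inverse square root of the raw count. Total counts were 165514 to 339934 per lane. Lanes of 1 group differed by more than sampling noise, with chi-square per degree of freedom of 2.72 or more. The labels do not state separate litters, so p-values rest on variation between these mice. In edgeR this variation is estimated partly from all tested probes, not from a single gene alone.

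Members and gene lists were chosen with earlier results of these data known. The genes named are all 10 members, up to 3 genes of each list with the smallest p, and the 3 probes most like *Slc1a3* and *Gja1*. *Vim*, *Lfng* and *Prl* and the promoter motifs were chosen after their values were seen. Alternatives were TMM and median-ratio scaling, DESeq2 1.42.0, no filter, a minimum mean raw count of 50, limma 3.58.1 with pseudocounts of 1 and 10, the methods' t-test, the authors' value table, subtraction of the mean of the lowest 10% of probes, the replicate number as a block, and each mouse left out.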

Additional observations from a re-analysis of the deposited data

How the results depend on the processing

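None of the 10 genes passed the adjusted threshold in any of the 17 alternatives. The number at an unadjusted p under 0.05 was 2 in most settings, 0 in DESeq2, 1 with the methods' t-test, and 0 to 2 when each mouse was left out. Without *Fmr1* KO replicate 1 the 2 were *Slc1a3*, lower, and *Agt*, higher, and *Gja1* was not among them. In that fit 76 of 601 tested probes had an unadjusted p under 0.05. The median log2 fold change of the 10 genes was -0.11 to 0.02 when each mouse was left out. The number of called genes in the other lists, 1 in edgeR, was 2 in DESeq2, 0 with the methods' t-test, and 0 to 7 when each mouse was left out, with 7 without WT replicate 3. Of 170 estimates for single genes, 24 changed sign. *S100b* was -0.0059 with TMM factors and -0.011 with median-ratio size factors, and -0.057 to 0.091 when each mouse was left out. *Entpd2* was 0.0095 in DESeq2, 0.012 and 0.014 with limma at pseudocounts of 1 and 10, 0.012 with the methods' t-test and with the authors' value table, and -0.20 to 0.19 when each mouse was left out. Leaving out each mouse gave -0.17 to 0.0060 for *Aldh1l1*, -0.15 to 0.27 for *Egfr*, -0.051 to 0.028 for *Nwd1* and -0.078 to 0.054 for *Kcnj10*. Without WT replicate 3 *Egfr* was 0.26, and without *Fmr1* KO replicate 2 *Entpd2* was -0.20. With the replicate number as a block, *Entpd2* was 0.0013, *Slc1a3* and *Gja1* were -0.19 and -0.20 (adjusted p = 0.385 from edgeR for both), and 0 of the 10 genes passed. Same-numbered mice did not clearly deviate together (correlations across probes of -0.06, -0.08 and 0.10). No pairing by number was seen, but 3 mice per group are too few to exclude one. The cause of these shifts was not tested. Precision is set by 3 mice per group and, for *Egfr* and *Entpd2*, by counts under 100 per lane.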
